A study of Homo sapiens with 18 samples.

Results

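Synaptic vesicle and release genes were followed through the RNA-seq libraries of human pluripotent stem cells with and without PCGF6. The 51 genes were taken by name from the 57133 genes of the count table: 17 synaptotagmins and 2 DOC2 genes (calcium sensors), 12 vesicle proteins, 3 vesicular transporters, 8 SNAREs and complexins, and 9 proteins of the active zone, the release site at the presynaptic membrane. They were chosen by name and role, with no expression threshold. Earlier results of these data were known at the choice, so the shares called below are no independent test of the list. All 51 were in the table, and 45 of them were among the 17672 genes that had enough counts to be tested.

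The cells were PGP1, an established human induced pluripotent stem cell (iPSC) line, grown in mTeSR1 medium on Matrigel. WT was unedited PGP1 (2 libraries), and PCGF6-KO clone 1 (2 libraries) and clone 2 (2 libraries) were PGP1 lines in which CRISPR-Cas9 with a pair of guide RNAs had removed part of the first exon of PCGF6 from both alleles. PCGF6 is a subunit of PRC1.6, a Polycomb complex that represses transcription. Each knockout line grew from a single cell, so within 1 clone an effect of the knockout and of the clone cannot be told apart. The sources do not say that the libraries of a group came from separate cultures, so p-values measure only the spread between these libraries, which may be technical. PCGF6-KO against WT takes the 4 libraries of the clones as 4 replicates, although they come from 2 lines.

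In a nerve terminal, neurotransmitter is packed into synaptic vesicles by vesicular transporters, and vesicles are docked at the active zone by RIM, Munc13, Bassoon and Piccolo proteins. Fusion is driven by the SNARE proteins VAMP2 on the vesicle and syntaxin 1 and SNAP25 on the plasma membrane, is held ready by complexins, and is triggered when calcium binds synaptotagmins. These proteins are best known from neurons and endocrine cells, and several family members also serve exocytosis elsewhere, so transcripts in an iPSC culture say nothing by themselves about synapses.

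The libraries held between 15877396 and 18918609 counts, and 3 counts in a library corresponded to between 0.157 and 0.187 CPM (the normalised read count of edgeR, scaled by TMM). PCGF6 itself stood at 16.5 and 18 CPM in WT, at 5.18 and 5.67 CPM in clone 1 and at 10.3 and 9.91 CPM in clone 2. The pluripotency markers were all detected, with a summed level of 7124 to 7430 CPM in WT and 6107 to 6325 CPM in PCGF6-KO. Markers of mesendoderm moved with the genotype: the summed level of the 10 in the table was 4.13 to 5.40 CPM in WT and 689 to 925 CPM in PCGF6-KO, with HAND1 and SOX17 at 0 in both WT libraries. Most of them were near 0 in WT and could pass the filter on low counts only through PCGF6-KO, so that no count of calls is given for them. Of 7 tested neuroectoderm markers, 3 rose and 1 fell in PCGF6-KO, beside 14.9% and 8.70% of all tested genes. The summed level of the list was 386 to 434 CPM in WT and 667 to 786 CPM in PCGF6-KO, with SOX1 at no more than 1 count in a library. Of 11 neuron markers, 5 were called higher and 2 lower (beside the same 14.9% and 8.70%), with RBFOX3 and DCX the 2 that fell. Their summed level was 201 to 210 CPM in WT and 425 to 472 CPM in PCGF6-KO. The part of any of these cell types in the results below was not tested, and in bulk RNA fewer cells of a type and less RNA per cell cannot be told apart.

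Calls required an adjusted p under 0.05 (edgeR's quasi-likelihood test, Benjamini-Hochberg over all tested genes) and an absolute log2 fold change over 0.6. In PCGF6-KO against WT, 21 of the 45 tested genes of the vesicle and release machinery fell and 2 rose, whereas 8.70% of all tested genes were called lower and 14.9% higher. In clone 1 against WT, 21 fell and 2 rose, beside 8.80% and 16.0% of all tested genes. In clone 2 against WT, 23 fell and 4 rose, beside 12.5% and 16.9%. SYP, counted among those that fell in each comparison, passed the filter through WT alone. So did CPLX2, counted among those that fell in PCGF6-KO and in clone 2. SYNPR, counted among those that rose in each comparison, passed it through PCGF6-KO alone. The calls of these genes could go in no other direction. For the 45 genes the median log2 fold change was −0.60 in PCGF6-KO, −0.58 in clone 1 and −0.76 in clone 2, while the median over all tested genes was 0.00 in each.

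The clones share their WT libraries, so their agreement is no independent evidence. With that limit, 17 genes were called lower in both clones (7.19% of all tested genes were), 2 were called higher in both (13.4% of all tested genes), and none was called in opposite directions. In CPM, all 4 PCGF6-KO libraries lay below both WT libraries for 28 of the 45 genes and above both for 4, whereas 27.6% and 29.5% of all tested genes did so, and for 13 genes the groups overlapped. The summed level of the 51 genes was 1026 and 1017 CPM in the WT libraries, 639 and 639 CPM in clone 1 and 657 and 679 CPM in clone 2. The total therefore fell by about the same amount in both clones, and the libraries of a group differed little. Some of its parts differed between the clones: the active zone genes summed to a mean of 251 CPM in clone 1 and 316 CPM in clone 2, and the vesicle proteins to 162 and 121 CPM. Abundant genes such as UNC13A, at 198 and 192 CPM in WT, weigh most in such sums.

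**Figure D1:**
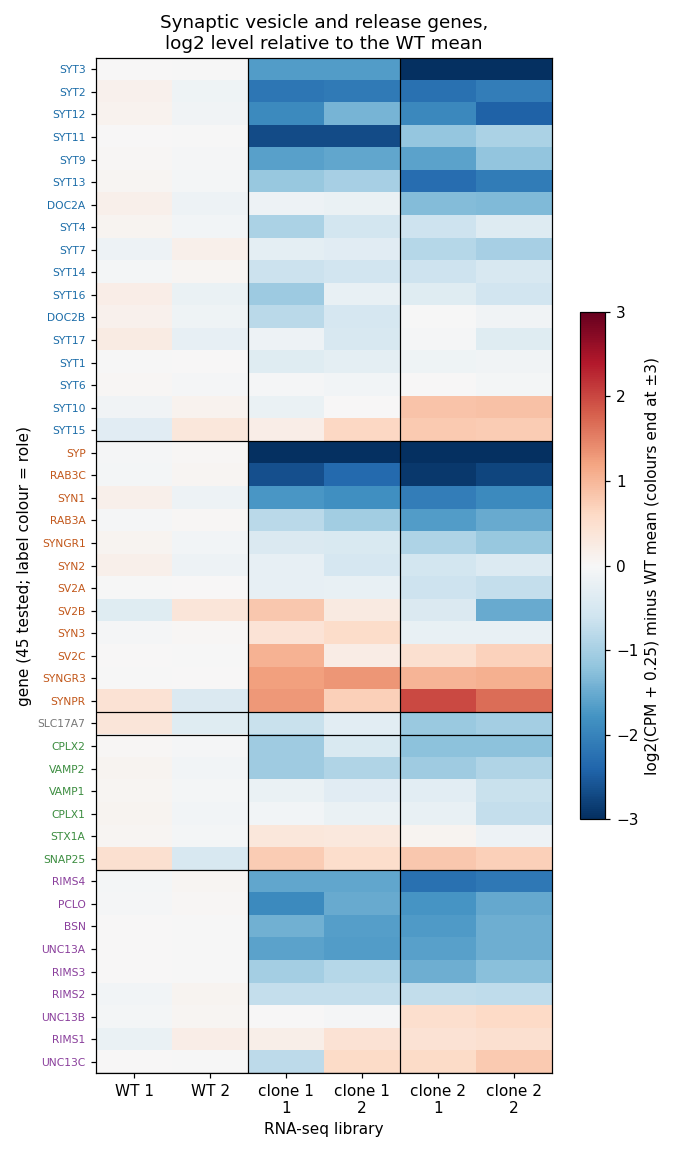
Heat map of the 45 tested genes (rows, label colour and black lines by role: calcium sensors, vesicle proteins, the 1 tested transporter, SNAREs and complexins, active zone) in the 6 libraries (columns). Colours give log2(CPM + 0.25) minus the WT mean of the gene, from blue (lower) to red (higher), ending at 3 in either direction. Blue fills most rows of the calcium sensors and the active zone in all 4 PCGF6-KO libraries, while SYNGR3 and SYNPR are red.

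Levels between genes are compared per length of the deposited gene model. In WT, SV2A stood highest at 22.3 CPM per kb, followed by UNC13A at 17.4, SYT6 at 9.76, SYT1 at 9.09, RAB3A at 8.09 and UNC13B at 7.96 CPM per kb. At the other end, 9 of the 51 genes stayed under 1 CPM in every library. SYT8 and CPLX3 had no count in any library, and SYT5, SLC17A6, SLC32A1 and CPLX4 had at most 9 counts in a library and were not tested. WT libraries thus held transcripts of vesicle proteins and of the active zone, with few or none of the transporter of GABA (SLC32A1) and of one transporter of glutamate (SLC17A6).

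The calcium sensors had 17 tested genes, of which 8 fell and none rose in PCGF6-KO against WT, 10 fell in clone 1, and 8 fell and 1 rose in clone 2. Of all tested genes, 8.70% fell in PCGF6-KO, 8.80% in clone 1 and 12.5% in clone 2, where 16.9% rose. All 8 that fell in PCGF6-KO were synaptotagmins, of 15 tested. SYT2, a fast calcium sensor of vesicle fusion, was at 26.4 and 21.8 CPM in WT, 5.13 and 5.34 CPM in clone 1 and 4.91 and 5.55 CPM in clone 2. The 4 PCGF6-KO libraries lay close together and far below WT, with a log2 fold change of −2.20 ± 0.14 (± gives the standard error throughout) in clone 1 (adjusted p = 5.3e-13), against −2.21 ± 0.14 in clone 2 (adjusted p = 5.5e-13). SYT2 shares 2111 exon bases with PPP1R12B on the opposite strand, which had 244 to 341 counts, and the strand setting of the counting is not given in the sources used here. SYT1, the best-studied fast sensor, was at 59 and 59.1 CPM in WT, 45.9 and 47.9 CPM in clone 1 and 53.7 and 55.2 CPM in clone 2 and was not called in any comparison. The ratio of SYT2 to SYT1 per length was 0.374 and 0.308 in WT and between 0.0764 and 0.0932 in the 4 PCGF6-KO libraries, a pair chosen after its values were seen.

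SYT3, SYT9 and SYT12 also fell in both clones. SYT9, another sensor that can drive fast release, was at 5.65 and 5.45 CPM in WT and between 1.62 and 2.31 CPM in PCGF6-KO, with a log2 fold change of −1.74 ± 0.24 in clone 1 and −1.49 ± 0.23 in clone 2. SYT12, which lacks the residues that bind calcium, was at 3.68 and 3.18 CPM in WT and between 0.436 and 1.16 CPM in PCGF6-KO, and fell by 1.86 ± 0.32 in clone 1 and by 2.54 ± 0.35 in clone 2 on the log2 scale. SYT3, a high-affinity sensor, was at 20.3 and 19.9 CPM in WT, 6.17 and 6.16 CPM in clone 1 and 1.65 and 2.18 CPM in clone 2. The groups of SYT3 did not overlap, and the fall was larger in clone 2 (−3.40 ± 0.17) than in clone 1 (−1.70 ± 0.14), with a difference between the clones of −1.69 ± 0.20 (adjusted p = 4.9e-07).

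SYT11 and SYT13, which are synaptotagmins without calcium-dependent binding, fell in both clones by unequal amounts and in opposite order. SYT11 was at 37.3 and 36.4 CPM in WT, 5.49 and 5.56 CPM in clone 1 and 16.2 and 19 CPM in clone 2, with a log2 difference of clone 2 against clone 1 of 1.67 ± 0.13 (adjusted p = 4.4e-10). SYT13 was at 19.6 and 18.1 CPM in WT, 8.47 and 9.35 CPM in clone 1 and 3.7 and 4.18 CPM in clone 2, with a difference of −1.18 ± 0.16 (adjusted p = 4.9e-06). The PCGF6-KO call of SYT11 was lost without WT 1 (adjusted p = 0.091) or WT 2 (adjusted p = 0.085), and that of SYT13 without WT 1 (adjusted p = 0.054). Each clone alone against WT kept its call for both genes under each alternative run.

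SYT4 and SYT7 were called in PCGF6-KO against WT near the fold threshold. SYT4, linked to dense-core vesicles, was at 7.8 and 6.89 CPM in WT, 3.66 and 4.95 CPM in clone 1 and 4.69 and 5.55 CPM in clone 2 and had a log2 fold change of −0.64 ± 0.19 in PCGF6-KO (adjusted p = 0.028). SYT4 was called lower in clone 1 (−0.77 ± 0.18, adjusted p = 0.0012; −0.57 without KO1 1) and not in clone 2 (−0.52 ± 0.18). The PCGF6-KO call was lost without WT 1 (adjusted p = 0.19) or WT 2 (adjusted p = 0.092), and without KO1 1 the change was −0.54 and without KO2 1 the adjusted p was 0.05. SYT7, a high-affinity sensor of slow and sustained release, was at 24.9 and 30.4 CPM in WT, 22.3 and 21.6 CPM in clone 1 and 15.1 and 13.7 CPM in clone 2. It fell by 0.94 ± 0.11 in clone 2 and was not called in clone 1, and the difference between the clones was −0.61 ± 0.11 (adjusted p = 0.00031), which came to −0.58 without KO1 1 and −0.54 without KO2 2. The PCGF6-KO change of SYT7 was −0.60 ± 0.20 (adjusted p = 0.042), and its call was lost without any one of WT 1, WT 2, KO2 1 and KO2 2 (adjusted p = 0.088, 0.3, 0.079 and 0.061) and under the replicate block (adjusted p = 0.081).

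The other calcium sensors were called in 1 clone or in none. DOC2A, a soluble high-affinity sensor of spontaneous release, was at 5.83 and 4.73 CPM in WT, 4.71 and 4.57 CPM in clone 1 and 1.99 and 1.93 CPM in clone 2, and fell in clone 2 by 1.43 ± 0.23, with a difference between the clones of −1.24 ± 0.23 (adjusted p = 0.00023). It shares 280 exon bases with INO80E on the opposite strand, which had 922 to 1218 counts. Its relative DOC2B showed the other order, at 6.33 and 5.33 CPM in WT, 3.19 and 4.02 CPM in clone 1 and 5.79 and 5.42 CPM in clone 2. DOC2B fell in clone 1 by 0.69 ± 0.19, a call lost without WT 1 (adjusted p = 0.069) or KO1 1 (adjusted p = 0.065). SYT10, a sensor of activity-dependent secretion, was at 3.5 and 4.07 CPM in WT and 3.24 and 3.8 CPM in clone 1, but at 7.06 and 7.17 CPM in clone 2, and rose there by 0.91 ± 0.19 (adjusted p = 0.00021). It was the only calcium sensor called higher in any of the comparisons with WT.

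SYT14 was at 25.3 and 27.7 CPM in WT and between 16.9 and 19 CPM in PCGF6-KO. The change of SYT14 was −0.61 ± 0.10 in clone 1, −0.55 ± 0.10 in clone 2 and −0.58 ± 0.09 in PCGF6-KO, so that only clone 1 passed the fold threshold, and it did not without WT 2 (−0.54) or KO1 1 (−0.58). SYT16 was called in clone 1 (−0.65 ± 0.25), with 5.22 and 3.84 CPM in WT, 1.99 and 3.8 CPM in clone 1 and 3.42 and 2.93 CPM in clone 2. That call rested on KO1 1, since without it the change of SYT16 was −0.25 (adjusted p = 0.47), without WT 1 it was −0.41 (adjusted p = 0.32), and without KO1 2 it was −1.18. SYT6 lay between 47.1 and 51.2 CPM in all 6 libraries, and SYT17 between 5.23 and 8.84 CPM. SYT15, which has a close copy (SYT15B) that may share its reads, stayed under 1 CPM. None of these 3 was called in any comparison.

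Of the 12 vesicle proteins, 5 fell and 2 rose in PCGF6-KO against WT, which is 41.7% and 16.7%. Of all tested genes, 8.70% fell and 14.9% rose, so the share that rose was near that of all genes. SYP encodes synaptophysin, the most abundant membrane protein of synaptic vesicles and the classic marker of the presynapse (GRCh38 X:49187815-49200218, minus strand). The WT libraries had 155 and 165 counts of SYP, those of clone 1 had 7 and 12, and those of clone 2 had 7 and 4, which is 9.52 and 9.89 CPM against 0.249 to 0.66 CPM. SYP fell by 4.23 ± 0.27 on the log2 scale in clone 1 and by 4.88 ± 0.30 in clone 2, the largest fall among the 45 genes in each clone. SYP averaged at least 10 counts in WT alone, so it could enter the test only through WT and only as a fall. Its calls against WT are therefore no test of its fall, and no adjusted p is given for them. The clones did not differ detectably at this depth (−0.65 ± 0.53, adjusted p = 0.44).

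RAB3A and RAB3C, small GTPases that tether vesicles to the active zone, fell in both clones. RAB3C was at 13.4 and 14.6 CPM in WT, 2.04 and 2.59 CPM in clone 1 and 1.65 and 1.87 CPM in clone 2, a log2 fold change of −2.60 ± 0.18 in clone 1 and −2.99 ± 0.19 in clone 2. RAB3A was at 14.3 and 15.1 CPM in WT, 8.26 and 6.99 CPM in clone 1 and 4.47 and 4.99 CPM in clone 2. It fell by 0.95 ± 0.14 in clone 1 and by 1.64 ± 0.15 in clone 2, and the difference between the clones was −0.69 ± 0.16 (adjusted p = 0.003), which came to −0.57 without KO1 1. RAB3A shares 165 exon bases with MPV17L2 on the opposite strand, which had 591 to 777 counts.

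SYN1, which encodes synapsin 1, a phosphoprotein that clusters vesicles into a reserve pool, was at 25.2 and 20.6 CPM in WT, 6.64 and 6.22 CPM in clone 1 and 5.24 and 5.86 CPM in clone 2. It fell by 1.83 ± 0.14 in clone 1 (adjusted p = 1.5e-11) and by 2.04 ± 0.14 in clone 2 (adjusted p = 2.7e-12). SYN2 was at 7.74 and 6.29 CPM in WT and between 4.69 and 5.86 CPM in PCGF6-KO, and was not called in any comparison. SYN3 was at 9.09 and 9.53 CPM in WT, 12.4 and 13.6 CPM in clone 1 and 7.94 and 7.92 CPM in clone 2, so that clone 1 was the higher group, and only the difference between the clones was called (−0.72 ± 0.13, adjusted p = 0.00028). Per length, SYN1 stood at 4.84 and 4.86 times SYN2 in the WT libraries and at 1.66 to 1.91 times SYN2 in the PCGF6-KO libraries, a ratio chosen after the values were seen.

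The synaptogyrins, relatives of synaptophysin, moved in opposite directions. SYNGR3 was at 6.26 and 6.29 CPM in WT, 15.1 and 16.1 CPM in clone 1 and 13 and 13.5 CPM in clone 2. It rose by 1.31 ± 0.13 in clone 1 (adjusted p = 6.2e-09) and by 1.08 ± 0.14 in clone 2 (adjusted p = 2.4e-07), with no overlap between the groups. SYNGR1 was at 23.6 and 21.3 CPM in WT, 16.5 and 16.4 CPM in clone 1 and 11.7 and 10.1 CPM in clone 2. SYNGR1 fell in clone 2 (−1.04 ± 0.12, adjusted p = 3.1e-08), and its PCGF6-KO change of −0.71 ± 0.20 lost its call without WT 1 (adjusted p = 0.14) or WT 2 (adjusted p = 0.084) and came to −0.60 without KO2 2. The ratio of SYNGR1 to SYNGR3 per length was 1.86 and 1.67 in WT and between 0.367 and 0.540 in PCGF6-KO, so the more abundant of the pair in WT was the less abundant in all 4 PCGF6-KO libraries.

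SYNPR, which encodes synaptoporin, another synaptophysin relative, rose in both clones from a low level, at 0.86 and 0.36 CPM in WT, 1.78 and 1.1 CPM in clone 1 and 2.98 and 2.37 CPM in clone 2. Its log2 fold change was 1.24 ± 0.43 in clone 1 and 2.13 ± 0.39 in clone 2. With counts of 14 and 6, the WT libraries alone would not have passed the filter, so SYNPR could be called only as a rise. Its calls against WT are therefore no test of that rise, and no adjusted p is given for them. The change of SYNPR also depended on single libraries. In clone 1 it came to 0.75 without WT 2 and 0.85 without KO1 1, where the call was lost, and to 1.99 without WT 1. In PCGF6-KO it came to 1.25 without WT 2, where the call was lost, and to 2.49 without WT 1. Without WT 1 the change of SYNPR in clone 2 was 2.88. With DESeq2, SYNPR was not called in clone 1.

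SV2A, a transporter-like vesicle glycoprotein and the target of the antiepileptic levetiracetam, was at 107 and 109 CPM in WT, 91.3 and 92.3 CPM in clone 1 and 70.2 and 65.5 CPM in clone 2. It was called in clone 2 (−0.67 ± 0.07, adjusted p = 5.6e-09), while its change in clone 1 (−0.23 ± 0.07, adjusted p = 0.0058) was below the fold threshold. Its paralogs were scarce. SV2C had 8 counts in each WT library and 11 to 24 in PCGF6-KO and was not called. The counts of SV2B were 5 and 11 for WT, 19 and 11 for clone 1 and 5 and 0 for clone 2. It passed the filter only with the counts of clone 1. Its call between the clones (−2.40 ± 0.73) could therefore only be lower in clone 2 and is no test of that difference. That call was lost without KO1 1 or KO2 2 (−1.52). Without KO2 1, which leaves a library at 0 counts, the change of SV2B has no meaning as a fold.

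**Figure D2:**
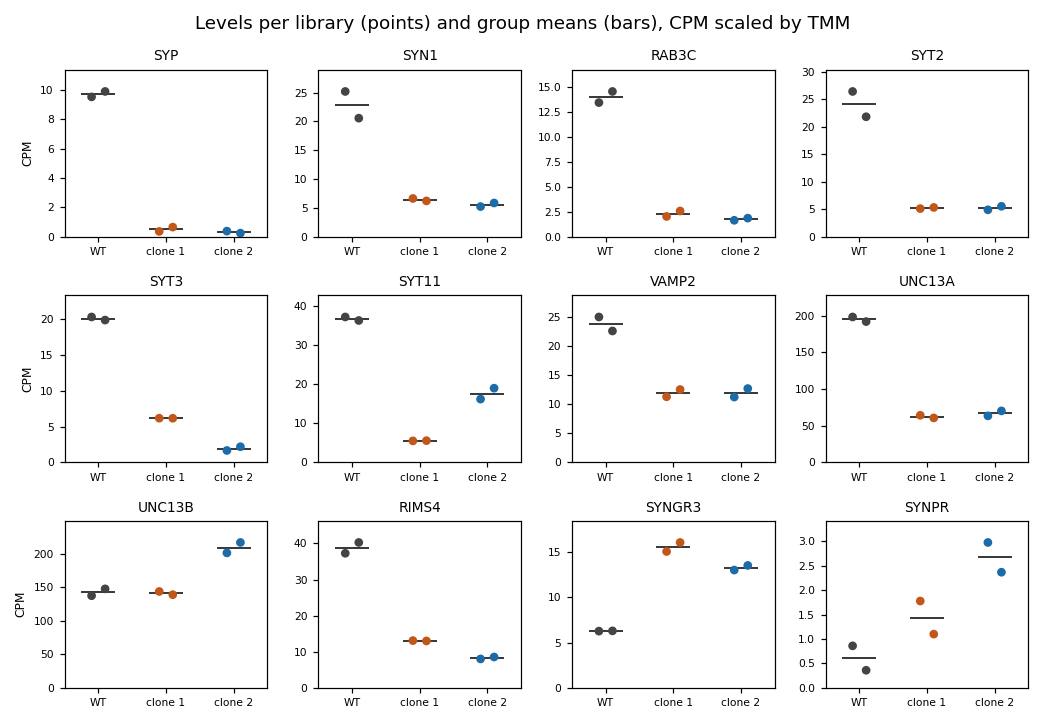
Levels of 12 genes by group, 1 panel a gene, with CPM (TMM-scaled, linear axes from 0) on the vertical axis, a point for each library and a bar at the mean of the 2 libraries of a group. SYP, SYN1, RAB3C, SYT2, VAMP2 and UNC13A sit low in both clones to a like degree, SYT3, SYT11 and RIMS4 differ between the clones, UNC13B does not fall, and SYNGR3 and SYNPR are higher in both clones.

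Of the vesicular transporters, SLC17A7 was tested and the other 2 had too few counts. SLC17A7 (VGLUT1), which loads glutamate, was at 3.81 and 2.22 CPM in WT, 1.73 and 2.31 CPM in clone 1 and 1.21 and 1.31 CPM in clone 2. The groups overlapped, and only clone 2 against WT was called (−1.25 ± 0.32, adjusted p = 0.0019), which without WT 1 came to −0.81 (adjusted p = 0.098). SLC17A6 (VGLUT2) had between 2 and 8 counts and SLC32A1 (VGAT) between 1 and 4 counts in each library.

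Of the 6 tested SNAREs and complexins, 2 fell in PCGF6-KO against WT, beside 8.70% of all tested genes. The calls divided the vesicle SNARE from its partners in the plasma membrane. VAMP2 (synaptobrevin 2), the vesicle SNARE of fast release, was at 24.9 and 22.5 CPM in WT, 11.2 and 12.5 CPM in clone 1 and 11.2 and 12.7 CPM in clone 2. It fell by 1.00 ± 0.12 in clone 1 (adjusted p = 6.1e-08) and by 1.00 ± 0.12 in clone 2 (adjusted p = 6.5e-08), which is to about the same level in each. VAMP1 was at 12.8 and 11.9 CPM in WT and between 7.67 and 10.7 CPM in PCGF6-KO and was not called. It shares 339 exon bases with TAPBPL on the opposite strand, which had at most 28 counts.

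STX1A (syntaxin 1A) was at 6.69 and 6.11 CPM in WT, 8.21 and 7.98 CPM in clone 1 and 6.78 and 5.73 CPM in clone 2, overlapping WT, and was not called. SNAP25 was at 1.97 and 0.899 CPM in WT, 2.46 and 2.04 CPM in clone 1 and 2.54 and 2.37 CPM in clone 2, with all PCGF6-KO libraries above WT by a small margin. It was called higher in clone 2 alone (0.78 ± 0.33, adjusted p = 0.048), and that call of SNAP25 was lost without WT 2 (0.32, adjusted p = 0.51), KO2 1 (adjusted p = 0.15) or KO2 2 (adjusted p = 0.082), with DESeq2 (adjusted p = 0.17) and with upper-quartile normalization (adjusted p = 0.059), while without WT 1 the change was 1.44. SNAP25 and VAMP2 therefore pointed in opposite directions, although a test of that difference was not made.

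Complexins bind the assembled SNAREs and hold them before calcium arrives. CPLX2 was at 1.41 and 1.32 CPM in WT, 0.523 and 0.935 CPM in clone 1 and 0.441 and 0.436 CPM in clone 2. Its log2 fold change was −1.62 ± 0.46 in clone 2 and −1.21 ± 0.38 in PCGF6-KO, and both were called. The PCGF6-KO libraries alone would not have passed the filter, so CPLX2 could be called only as a fall. Its calls against WT are therefore no test of that fall, and no adjusted p is given for them. The PCGF6-KO call of CPLX2 was lost when any library but KO1 2 was left out, with DESeq2 and under the replicate block. CPLX1 was between 1.5 and 2.76 CPM in the 6 libraries and was not called.

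Of the 9 active zone genes, all tested, 6 fell in PCGF6-KO against WT, 6 in clone 1 and 6 in clone 2, and none rose. In the same comparisons, 8.70%, 8.80% and 12.5% of all tested genes fell. UNC13A (Munc13-1), which primes docked vesicles by opening syntaxin, was among the most abundant members in WT (GRCh38 19:17601336-17688365, minus strand). The WT libraries had 3225 and 3200 counts of UNC13A, those of clone 1 had 1225 and 1100, and those of clone 2 had 1148 and 1124, which is 198 and 192 CPM against 60.5 to 70.1 CPM. The groups were far apart for their spread, with a fall of 1.65 ± 0.07 in clone 1 (adjusted p = 1.1e-16) and of 1.55 ± 0.07 in clone 2 (adjusted p = 3e-16).

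UNC13B (Munc13-2), its paralog with a like role and a wider range of tissues, did not fall. It was at 137 and 148 CPM in WT, 144 and 139 CPM in clone 1 and 201 and 217 CPM in clone 2, where it was higher by 0.55 ± 0.06 (adjusted p = 4.2e-08), below the fold threshold. Without WT 2 (0.60) or KO2 1 (0.61) the change of UNC13B in clone 2 passed that threshold. The ratio of UNC13A to UNC13B per length was 2.31 and 2.08 in the WT libraries, 0.714 and 0.697 in those of clone 1, and 0.503 and 0.517 in those of clone 2. The more abundant Munc13 transcript in WT was thus the less abundant one in all 4 PCGF6-KO libraries, a comparison chosen after the values were seen. UNC13C had at most 13 counts in a library and was not called.

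RIM proteins link vesicles, through RAB3, to calcium channels and Munc13. RIMS4, which encodes a short RIM with the last C2 domain alone, was at 37.3 and 40.3 CPM in WT, 13.1 and 13 CPM in clone 1 and 8 and 8.54 CPM in clone 2, and fell by 1.57 ± 0.10 and 2.23 ± 0.11 in the 2 clones, with a difference between them of −0.66 ± 0.12 (adjusted p = 0.00029). RIMS3, of the same short kind, was at 21.9 and 21.9 CPM in WT and between 7.72 and 11.9 CPM in PCGF6-KO, and fell by 0.95 ± 0.12 in clone 1 and by 1.38 ± 0.12 in clone 2. RIMS2 was at 16.3 and 18.3 CPM in WT and between 10.2 and 10.4 CPM in the 4 PCGF6-KO libraries, a fall of 0.74 ± 0.12 in clone 1 and 0.76 ± 0.12 in clone 2. RIMS1, the main full-length RIM of the brain, was at 2.09 and 2.82 CPM in WT and between 2.77 and 3.49 CPM in PCGF6-KO, and was not called. The order of the falls was thus RIMS4, RIMS3 and RIMS2 in both clones, with RIMS1 not called.

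The scaffolds Bassoon and Piccolo, giant proteins that organise the active zone, fell to a like degree. BSN was at 10.9 and 10.8 CPM in WT and between 3.14 and 3.82 CPM in PCGF6-KO, with a log2 fold change of −1.60 ± 0.17 in clone 1 (adjusted p = 1.4e-08), against −1.66 ± 0.17 in clone 2 (adjusted p = 8.9e-09). PCLO was at 17.9 and 18.8 CPM in WT and between 4.71 and 6.27 CPM in PCGF6-KO, with −1.74 ± 0.15 in clone 1 (adjusted p = 1.9e-10), against −1.69 ± 0.15 in clone 2 (adjusted p = 3.3e-10). Neither differed detectably between the clones.

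**Figure D3:**
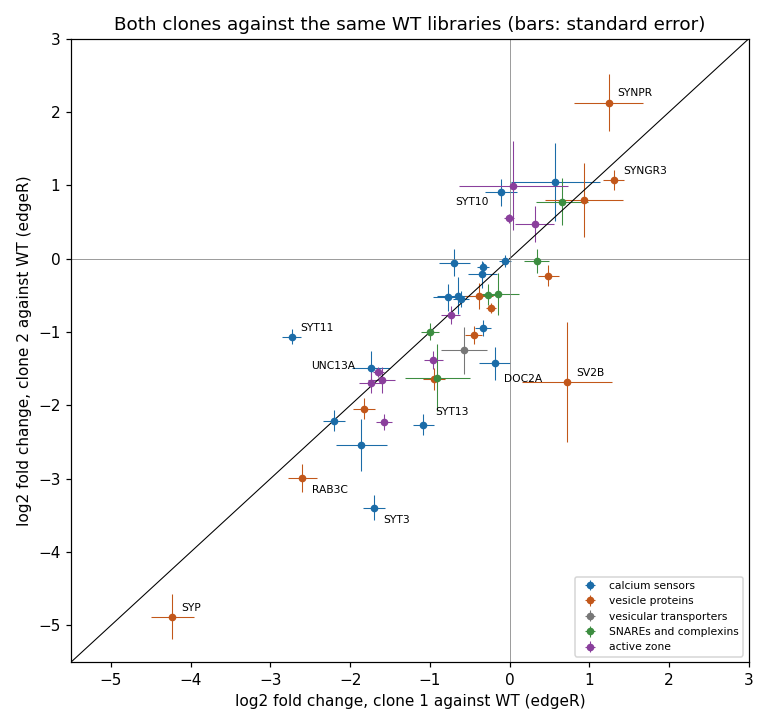
Log2 fold change against WT in clone 1 (horizontal) and clone 2 (vertical) for the 45 tested genes, coloured by role, with standard errors as bars, the diagonal of equal change as a black line and zero as grey lines. Both axes use the same WT libraries. UNC13A lies on the diagonal near −1.65 and −1.55, SYP lies at the lower left, SYT3 and SYT13 lie below the diagonal and SYT11 above it.

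The clones were also compared with each other. Of the 45 genes, 8 were called lower and 3 higher in clone 2 than in clone 1, beside 4.14% and 3.73% of all tested genes. The 3 higher in clone 2 were the calcium sensors SYT10, SYT11 and DOC2B (0.64 ± 0.19), the last lost without KO1 1 (adjusted p = 0.17), KO2 1 (adjusted p = 0.12) or KO2 2 (adjusted p = 0.05) and with DESeq2 (adjusted p = 0.11). The 8 lower were SYT3, SYT7, SYT13, DOC2A, SYN3, SV2B, RAB3A and RIMS4. SV2B passed the filter only with clone 1, so it could be called only lower in clone 2. Among the 17 genes lower in both clones, 12 were not called between them, and of the 5 that were, 4 were lower in clone 2 and SYT11 was lower in clone 1.

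**Figure D4:**
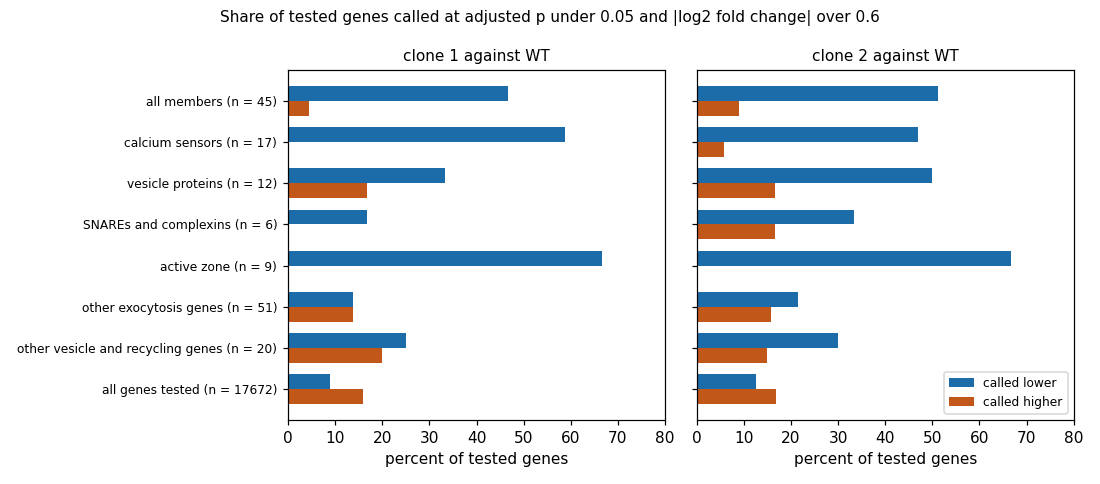
Percent of tested genes called lower (blue) and higher (orange) in clone 1 (left) and clone 2 (right) against WT, for all 45 tested genes, for each role with at least 6 tested genes, for 2 lists of other secretion genes and for all tested genes. The 45 genes stand at 46.7% lower in clone 1 and 51.1% in clone 2, the other exocytosis genes at 13.7% and 21.6%, and all tested genes at 8.80% and 12.5%.

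A list of 51 other exocytosis genes (ubiquitous SNAREs, SNARE regulators, RAB effectors) and a list of 24 other vesicle and recycling genes gave the wider machinery. Of the 71 tested, 11 rose and 12 fell in PCGF6-KO against WT (beside 14.9% and 8.70% of all tested genes), with a median log2 fold change of −0.03. In clone 1, 11 rose and 12 fell (beside 16.0% and 8.80% of all tested genes), and in clone 2, 11 rose and 17 fell (beside 16.9% and 12.5%). In both clones, 9 rose and 12 fell, beside 13.4% and 7.19% of all tested genes. Those that fell most included STXBP5L (tomosyn 2, a brake on SNARE assembly), from 14.4 and 12.8 CPM in WT to between 1.16 and 1.41 CPM in PCGF6-KO. They also included SNCB (β-synuclein), with a log2 fold change of −2.42 ± 0.29 in PCGF6-KO, PPFIA3 (liprin-α3, an active zone scaffold, −1.50 ± 0.26) and SCAMP5 (a vesicle membrane protein, −1.42 ± 0.08).

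Among those that rose most, VAMP8, the SNARE of endosomes and of exocrine granules, was at 14.4 and 14.2 CPM in WT and between 52.4 and 62 CPM in PCGF6-KO, and SYTL5, a RAB27 effector, was at 1.17 and 1.08 CPM in WT and between 13.7 and 19.3 CPM in PCGF6-KO. VAMP5, of muscle, rose by 2.55 ± 0.29, STXBP6 (amisyn) by 1.26 ± 0.15, and SYPL2, a synaptophysin relative of muscle, by 1.00 ± 0.19. The vesicle SNAREs VAMP2 and VAMP8 therefore moved in opposite directions in all 4 PCGF6-KO libraries.

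Promoters (250 bases before to 50 after the gene start, RefSeq, GRCh38.p14) were matched for 38 of the 51 genes and searched on both strands for short motifs. TTCAGCACC is the left arm of RE1, the element bound by REST, a repressor of neuronal genes. It was found in the promoters of 2 of the 38 genes and of 0.469% of the 27305 genes with a promoter in the table. The 2 were SYN1 and UNC13A, shown here because they hold the motif, and the capitals mark the match. Both genes were lower in both clones, and a part of REST in that was not tested. The SYN1 stretch is X:47620052-47620107 (minus strand), upstream of the gene start. The UNC13A stretch is 19:17688340-17688378 (minus strand), which spans the RefSeq gene start and holds the motif as its reverse complement.
SYN1: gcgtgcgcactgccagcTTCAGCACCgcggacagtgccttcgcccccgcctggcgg
UNC13A: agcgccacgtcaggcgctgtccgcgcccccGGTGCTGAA

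The right arm of RE1, GGACAGC, was found in 6 of the 38 genes (7.33% of all genes with a promoter), among them UNC13A, BSN and RAB3C, which fell, and SYNPR, which rose. The E-box CACGTG, a MYC and MAX site, was in 4 of the 38 (8.77% of all) and GCGGGAA, an E2F6 site, in 3 of the 38 (7.82% of all). Of the genes lower in both clones, UNC13A was the one with the E-box and SYP the one with the E2F6 site. A match says only that these letters are in the window. The search took exact letters, so the ggacagt beside the left arm in the SYN1 stretch was not counted as a right arm.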

How the data were processed

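The RNA-seq libraries of WT PGP1 cells and PCGF6-KO clones 1 and 2 were used (2 libraries a group), and the ChIP-seq samples were not analysed here. The authors trimmed reads with Trim Galore (0.6.2), aligned them to GRCh38 with HISAT2 (2.1.0), counted them per gene with featureCounts and deposited raw counts with gene lengths. The annotation release, strand setting and treatment of multi-mapped reads are not given in the sources used here.

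Genes were filtered with filterByExpr on the 2 genotypes and scaled by TMM. edgeR (4.0.16, limma 3.58.1, R 4.3.3) glmQLFit and glmQLFTest compared the 4 PCGF6-KO with the 2 WT libraries, and in a fit of 3 groups each clone with WT and the clones with each other, with Benjamini-Hochberg adjustment over 17672 genes. The thresholds are those of the study's methods, which used DESeq2. The fits were tested on simulated counts. Alternatives were RLE and upper-quartile normalization, DESeq2 (1.42.0), no filter, at least 10 counts in every library, the replicate block, the adjusted p alone, fits of only the groups compared, the mean of the clones and leaving out each library. Counts limit precision, and floors cover counting error only.

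The members and lists were chosen with earlier results of these data known. All members may be named. Of the other lists, up to 5 genes in each direction are named, called alike in both clones with an average log2 CPM of at least 1 and ranked by fold change (1 is not reported here), and markers and overlapping genes where a result turns on them. Positions are from GENCODE release 44. Of the members, 20 share exon bases with another gene, 9 of them called alike in both clones.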

Additional observations from a re-analysis of the deposited data

Results flagged for a closer look

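SYT9 had 1 of its 4 PCGF6-KO libraries apart from the rest, KO2 2 at 2.31 CPM against 1.62 to 1.71 CPM, a gap that was 0.877 of the range. Chance sets a library apart in this way in about 1 in 20 groups.

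The clones differed by the test of the difference itself for 11 members, of which SV2B passed the filter only with clone 1. On the log2 scale, clone 2 was higher than clone 1 for SYT11 (1.67), SYT10 (1.02) and DOC2B (0.64), and lower for SV2B (−2.40), SYT3 (−1.69), DOC2A (−1.24), SYT13 (−1.18), SYN3 (−0.72), RAB3A (−0.69), RIMS4 (−0.66) and SYT7 (−0.61). SYT3, SYT11, SYT13, RAB3A and RIMS4 were lower than WT in both clones all the same. PCGF6 transcripts also differed between the clones, at 5.18 and 5.67 CPM in clone 1 and 10.3 and 9.91 CPM in clone 2, and the summed mesendoderm markers had a mean of 693 CPM in clone 1 and 922 CPM in clone 2. Their part in these differences was not tested.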

How the results depend on the processing

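No fold change with an adjusted p under 0.05 turned its direction under any alternative run. The number of members called stayed within 1.5 times of 23 in PCGF6-KO against WT (18 with at least 10 counts in every library to 26 with the mean of the clones, and 17 to 24 with a library left out), of 23 in clone 1 (19 to 28, and 18 to 25), of 27 in clone 2 (23 to 32, and 27 to 30) and of 11 between the clones (9 with DESeq2 to 15 by the adjusted p alone, and 8 to 13). Where leaving out a library left 1 in a group, that library was taken to vary like the others. Without a filter, the median log2 fold change over all genes in PCGF6-KO against WT moved to 0.10, and under upper-quartile normalization it was −0.03. The correlation of the deviations of samples with the same replicate number, across 15413 genes, was r = 0.04 (rho = 0.11) for WT and clone 1, r = 0.05 (rho = 0.11) for WT and clone 2 and r = 0.15 (rho = 0.23) for the clones. As r was not over 0.1 in every pair, although rho was, the numbers were not taken to pair the samples. With the replicate block, 21 members were called in PCGF6-KO against WT, 23 in clone 1, 27 in clone 2 and 12 between the clones, and SYT7 and CPLX2 lost their call. Changes of members with under 20 counts in a group, such as SYP, SYNPR, CPLX2 and SV2B, were limited by depth.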

Other observations

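Markers of neuroendocrine cells, whose dense-core granules are released by the same SNAREs, divided in direction. Of 9 tested, 5 fell and 3 rose in PCGF6-KO against WT, beside 8.70% and 14.9% of all tested genes. In clone 1, 5 fell and 3 rose (beside 8.80% and 16.0%), and in clone 2, 5 fell and 2 rose (beside 12.5% and 16.9%). The summed level of the list was 257 to 269 CPM in WT and 140 to 145 CPM in PCGF6-KO. The 5 that fell were the granins and their relatives, which fill the granule core: CHGA was at 31.1 and 30.4 CPM in WT and between 2.62 and 3.82 CPM in PCGF6-KO (log2 fold change −3.30 ± 0.15), SCG5 fell by 2.94 ± 0.34, SCG2 by 2.77 ± 0.44, CHGB by 1.95 ± 0.28 and SCG3 by 1.03 ± 0.06. The 3 that rose in PCGF6-KO were PCSK1 (3.12 ± 0.35) and CPE (0.61 ± 0.13), which process peptide hormones, and INSM1 (4.03 ± 0.30), a transcription factor of endocrine cells. The change of CPE was close to the fold threshold.

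Neuron markers outside the release machinery divided as well. NEFL was at 17.9 and 17.9 CPM in WT, 100 and 94.9 CPM in clone 1 and 72 and 73.1 CPM in clone 2, and NEFM, GAP43, STMN2 and INA rose too, with log2 fold changes of 1.73, 1.67, 1.56 and 0.73. RBFOX3 (NeuN) was at 32.4 and 27.8 CPM in WT and between 5.94 and 7.95 CPM in PCGF6-KO. The neurofilament genes thus stood higher in the same libraries in which SYP and SYN1 stood lower.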
